A study of Mus musculus with 10 samples.

Results

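Olfr166 and Olfr1307 are a pair of mouse olfactory receptor genes whose probes were read in RNA of extracellular vesicles from the brain. They were found through the RefSeq accessions printed with the probes, NM_147068 for Olfr166 (probe A_51_P271160) and NM_001011787 for Olfr1307 (probe A_51_P362554). Symbols were sought only for the 50 probes printed at 10 spots, and the 2 genes are among the 46 that got one. Each gene has 1 probe among these, at 10 spots on every array. The 2 probes are part of 60823 probes on the array, and both were bright enough to enter the tests over 49028 probes. The genes were chosen because earlier results on these arrays showed a pattern between the exposure groups, so their levels by group are given as a description and carry no test.

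The mice were adult C57BL/6J females, an inbred strain, kept in chambers with room air or with ethanol vapor for 4 weeks (5 days of each week, 8 h on each of these days). After the last exposure the whole brain was taken, its vesicles were pelleted by differential ultracentrifugation, and their RNA (near 3 µg) was amplified, labelled with Cy3 and hybridised to a 1-colour Agilent array. Room air and ethanol vapor had 5 arrays each, 1 to a sample, and replicates carry the sample numbers in the labels. Nothing in the labels says that samples are separate animals, so p-values cover only how much these samples vary, which may be technical in part. The vesicles came from the whole brain, so fewer vesicles of one source and less of an RNA in each vesicle cannot be told apart.

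Olfactory receptors are G protein-coupled receptors with 7 membrane-spanning segments. In the nose, each sensory neuron expresses one receptor gene of the large family, odorant binding acts through the G protein subunit encoded by Gnal and the adenylyl cyclase encoded by Adcy3, and the rise in cyclic AMP opens a channel built from Cnga2, Cnga4 and Cngb1. The axons of these neurons end in the olfactory bulb of the brain. Transcripts of some olfactory receptors are also known from tissues other than the nose.

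In the gene table (assembly GRCm38.p6) both genes belong to a family of 1110 protein-coding Olfr genes. The gene models of Olfr166 and Olfr1307 are both 939 bases long. Olfr166, also named MOR270-1, lies between Olfr165 and Olfr167, and its MOR270 family has 1 protein-coding gene in the table. Olfr1307, also named MOR245-19P, lies between Olfr1306 and Olfr1308, and its MOR245 family has 23. Whether the Olfr1307 probe also takes up RNA of these related receptors was not tested. The arrays were designed on build mm9, which differs from that of the table, so no coordinates are given.

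File headers divide the arrays into 2 sets by a shared scan identifier, which may mark a slide, a scan or a day of hybridisation; each set is called a slide. On slide 1 are room air replicates 1, 2 and 3 and ethanol replicate 4, and on slide 2 are room air replicates 5 and 9 and ethanol replicates 6, 7, 8 and 10. The share of non-control spots that read well above background ran from 62.1% to 74.5% on slide 1 and from 75.9% to 87.9% on slide 2, without overlap. Named probes are the 46 with 10 spots and a symbol, and the other probes of the array were not searched for the genes listed next. Of 12 brain markers, 3 had a named probe. Those of Mbp (myelin basic protein) and Chgb (chromogranin B) were well above background on 10 of 10 arrays, and that of Gabrg1 (a GABA receptor subunit) on 3. Of 26 genes of odour transduction and receptor trafficking, Gnal, Adcy3 and Cnga2 among them, 0 had a named probe, nor did any of 4 markers of olfactory sensory neurons, 6 of olfactory bulb neurons, 5 of vesicles or 4 of blood.

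Both receptor probes gave signal above the local background throughout. All 100 spots of Olfr166 and all 100 spots of Olfr1307, over the 10 arrays, were well above background, and 0 were marked as non-uniform. The signal already had its background subtracted, and is set here beside the local background as read. The median signal of an array for Olfr166 ran from 430 to 974 intensity units, or 16.9 to 54.1 times the median local background beside its spots. For Olfr1307 it ran from 96.9 to 430, or 6.15 to 16.9 times the background. The SD between the 10 spots of an array had a median of 0.095 (log2) for Olfr166 and 0.094 for Olfr1307, so the mean of an array had a standard error of about 0.030 from printing and reading alone for either probe. Between arrays the spread was larger. The SD of the array means was 0.19 for Olfr166, which spanned a 1.48-fold range, and 0.63 for Olfr1307, which spanned a 3.51-fold range.

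A level is the log2 intensity of a probe after subtraction of its array's 75th percentile, averaged over the 10 spots. Group differences are given as ethanol vapor minus room air. Levels are those of a probe and are not compared between the genes.

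Olfr166 was lower in the ethanol vapor vesicles on average. In room air its level was 1.06 in replicate 1, 1.33 in replicate 2, 1.33 in replicate 3, 1.002 in replicate 5 and 0.99 in replicate 9. In ethanol vapor it was 0.96 in replicate 4, 0.77 in replicate 6, 0.94 in replicate 7, 0.96 in replicate 8 and 0.78 in replicate 10. All ethanol arrays were below all room air arrays on this scale, with room air replicates 2 and 3 standing above the rest and ethanol replicates 6 and 10 below it. The means were 1.14 ± 0.17 (SD, n = 5) and 0.88 ± 0.098 (SD, n = 5), a difference of -0.26 (SE 0.18) or 1.20-fold. Over all tested probes, 0.139% had ethanol below room air without overlap and 0.492% had groups without overlap in either direction. The gene was picked for this separation, so nothing is read from that share.

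The separation of the Olfr166 groups was narrow. The lowest room air array, replicate 9, and the highest ethanol array, replicate 8, were 0.025 apart (1.02-fold), and the standard error of that gap from the printed spots was 0.053. Of the 10 spots of ethanol replicate 8, 5 read above the mean of room air replicate 9. Room air replicates 1, 5 and 9 and ethanol replicates 8, 4 and 7 followed each other with steps of 0.0041 to 0.057, each within 1 standard error of the step. The steps beyond 3 standard errors were those of 0.27 below room air replicate 2 and of 0.16 below ethanol replicate 7.

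**Figure D1:**
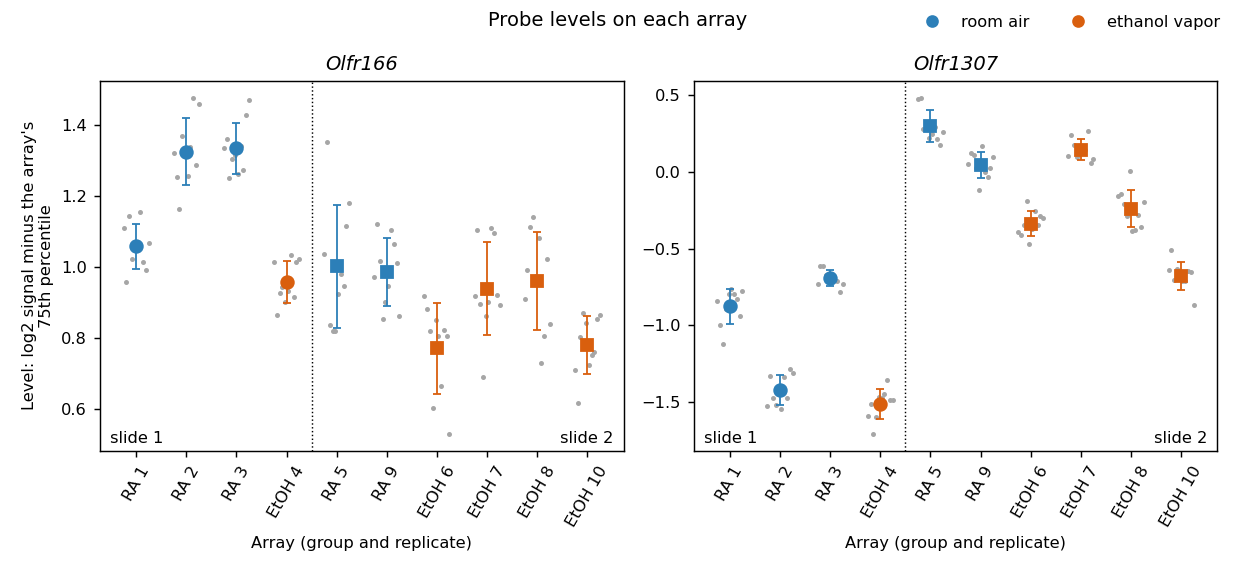
Levels of the Olfr166 and Olfr1307 probes on each array (log2 signal minus the 75th percentile of the array), with room air (RA) in blue, ethanol vapor (EtOH) in orange, circles for slide 1 and squares for slide 2. Grey points are the 10 printed spots, large points their mean and bars their SD; Olfr166 runs from 0.77 to 1.33 with all ethanol arrays lowest, and Olfr1307 from -1.51 to 0.30 with the slide 2 arrays highest.

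The direction for Olfr166 was the same on both slides. On slide 1 room air averaged 1.24 ± 0.16 (SD, n = 3) and the 1 ethanol array was at 0.96, a difference of -0.28. On slide 2 room air averaged 0.99 ± 0.011 (SD, n = 2) and ethanol 0.86 ± 0.10 (SD, n = 4), a difference of -0.13. In the fit with slide as a block the group difference was -0.19 (SE 0.14). Ethanol arrays lay below room air arrays within each slide for Olfr166, as they did for 4.00% of all tested probes and for 2 of the 35 named probes, Lhx1 being the other.

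Olfr1307 had nearly the same mean in both groups when the slides were ignored. In room air its level was -0.88 in replicate 1, -1.42 in replicate 2, -0.69 in replicate 3, 0.30 in replicate 5 and 0.046 in replicate 9. In ethanol vapor it was -1.51 in replicate 4, -0.34 in replicate 6, 0.15 in replicate 7, -0.24 in replicate 8 and -0.68 in replicate 10. The groups overlapped almost completely, and the slides did not overlap, with every slide 2 array above every slide 1 array on this scale. How many of all tested probes had slides without overlap was not counted. Room air averaged -0.53 ± 0.70 (SD, n = 5) and ethanol vapor -0.52 ± 0.63 (SD, n = 5), a difference of 0.0054 (SE 0.40).

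Within each slide the mean of Olfr1307 was lower in ethanol vapor. On slide 1 room air averaged -0.997 ± 0.38 (SD, n = 3) and the ethanol array read -1.51, the lowest of the slide. On slide 2 room air averaged 0.17 ± 0.18 (SD, n = 2) and ethanol -0.28 ± 0.34 (SD, n = 4), with ethanol replicate 7 between the room air arrays and the other 3 below both. The differences were -0.52 on slide 1 and -0.45 on slide 2. In the fit with slide as a block the group difference was -0.47 (SE 0.21) or 1.39-fold, again a description, since the gene was picked for this value. The slides were kept apart by the smallest gap between adjacent Olfr1307 arrays, 0.014 between ethanol replicate 10 and room air replicate 3. The standard error of that gap from the printed spots was 0.033, so the separation of the slides was narrow.

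The signal without any scaling between arrays gave overlapping groups for both genes. For Olfr166 the median signal was 474, 791, 974, 695 and 531 in room air replicates 1, 2, 3, 5 and 9 and 519, 480, 557, 438 and 430 in ethanol replicates 4, 6, 7, 8 and 10. Room air replicate 1 read below ethanol replicates 4, 6 and 7 there. For Olfr1307 it was 128, 115, 241, 430 and 275 in room air and 96.9, 215, 325, 187 and 157 in ethanol vapor, in the same order of replicates, and the ranges overlapped. By rank within the array, which uses no scaling, the median Olfr166 spot was brighter than 82.7% ± 0.55 (SD, n = 5) of spots on room air arrays, and than 82.5% ± 0.998 (SD, n = 5) on ethanol arrays. Its highest rank, 83.7%, was that of ethanol replicate 8, and its lowest, 81.0%, that of ethanol replicate 4. On the slides, the rank of Olfr1307 ran from 60.4% to 69.6% on slide 1 and from 62.7% to 77.8% on slide 2, so by rank the slides overlapped. In the groups Olfr1307 ranked at 70.3% ± 6.74 (SD, n = 5) and 68.0% ± 6.51 (SD, n = 5).

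The size of the Olfr166 difference and the separation of its groups depended on how the arrays were scaled. Of 10 settings of scaling, background and spot summary, the groups stayed apart in 3, namely the 75th percentile, the same with non-uniform spots kept, and normexp background correction, where the gap was 0.00024. They overlapped when the median of the 10 spots replaced their mean, when spots marked as population outliers (4 of 100) were left out, and under every other scaling. The difference was -0.69 (SE 0.34) with each array set to its median, -0.052 (SE 0.15) after quantile normalization and 0.0040 (SE 0.20) with the 75th percentile of probes that every array detected (all of them well above background). With the slide as a block it was below 0 in all 10 settings.

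The scalings also moved all probes together. The median difference of all tested probes was 0.26 with the 75th percentile, -0.17 with the median and 0.53 with the percentile of probes that every array detected. Relative to that median, Olfr166 was at -0.52 and Olfr1307 at -0.26 under the 5 settings that shift an array by 1 constant, and at -0.071 and -0.21 after quantile normalization. With the slide as a block the values relative to the median were -0.22 for Olfr166 and -0.50 for Olfr1307 under the same 5 settings, and -0.11 and -0.52 after quantile normalization.

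**Figure D2:**
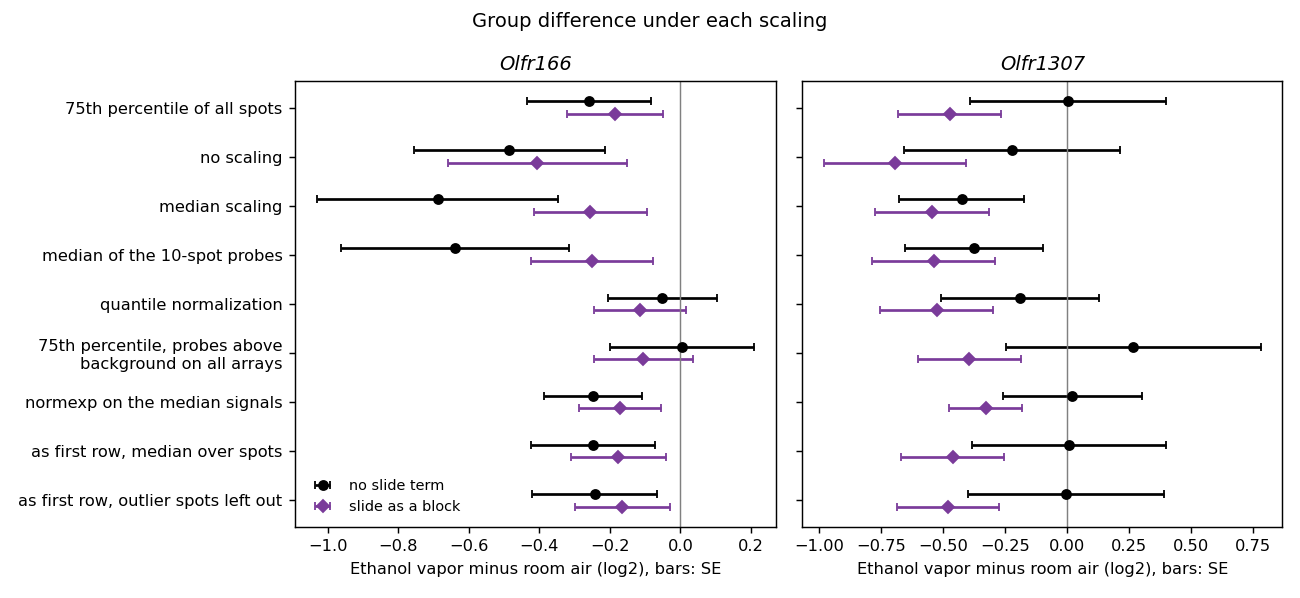
Ethanol vapor minus room air (log2, bars are SE of the limma fit) for Olfr166 and Olfr1307 under 9 settings, without a slide term (black circles) and with the slide as a block (purple diamonds). Blocked values lie below 0 for both genes at every setting, from -0.41 to -0.11 for Olfr166 and from -0.69 to -0.33 for Olfr1307, and unblocked ones lie on both sides of 0.

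For Olfr1307 the unblocked difference was above 0 in 5 of the 10 settings and below 0 in 5, from -0.42 with median scaling to 0.27 with the percentile of probes that every array detected, and the groups overlapped in all 10. The blocked difference was below 0 in all 10. Leaving out each array in turn moved the unblocked value between -0.22 and 0.25 and the blocked value between -0.56 and -0.39.

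The printed spots of a probe lie at different places on the array, and each was compared on its own. These 10 positions share the same 10 arrays and are no replicates of the exposure. For Olfr166 the ethanol mean was lower at 10 of 10 positions, by values from -0.38 to -0.17, and with the slide as a block from -0.33 to -0.11. At 0 of the 10 positions did the groups stay apart, so the separation of the array means was not seen at any single spot. For Olfr1307 the ethanol mean was lower at 5 positions and higher at 5, from -0.061 to 0.093, and lower at 10 of 10 with the block, from -0.54 to -0.35.

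**Figure D3:**
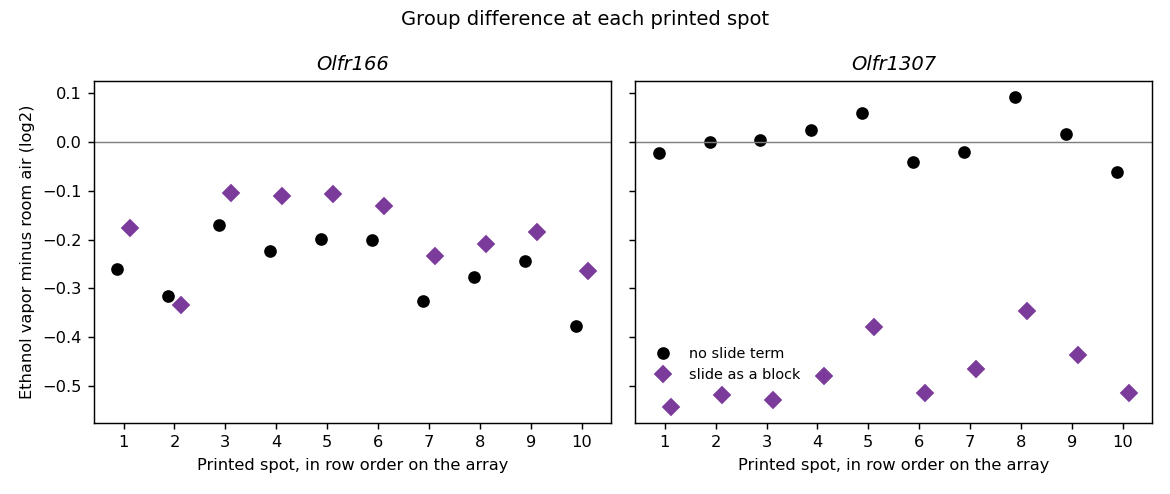
Ethanol vapor minus room air (log2) at each of the 10 printed spots of Olfr166 and Olfr1307, without a slide term (black circles) and with the slide as a block (purple diamonds). All Olfr166 values lie below 0, and for Olfr1307 the unblocked values lie on both sides of 0 while the blocked ones run from -0.54 to -0.35.

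The slides were compared next, with the group kept in the model. The slide difference of a gene follows from its group differences without and with the slide, which were known when the genes were chosen. Its p-values are thus given as a description. Olfr1307 was 1.20 higher on slide 2 (SE 0.21, 95% interval 0.74 to 1.66), or 2.29-fold, with an adjusted p of 0.00030 in limma. Between the slides 75.4% of all tested probes passed the threshold, 57.0% higher and 18.4% lower on slide 2, so Olfr1307 was among the majority. Its difference was above that of 67.7% of tested probes and above their median of 0.69. It was above 0 at 10 of 10 positions, from 1.09 to 1.34.

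The Olfr166 level did not pass the slide threshold. It averaged 1.17 ± 0.19 (SD, n = 4) on slide 1 and 0.91 ± 0.10 (SD, n = 6) on slide 2, with a fitted difference of -0.19 (SE 0.14, 95% interval -0.49 to 0.12) and an adjusted p of 0.241 in limma. Of the 35 named probes, 23 passed, and Olfr166 was not one of them. The outcome rested on the scaling, since Olfr166 differed between slides by -1.08 (adjusted p 8.6e-05) with median scaling and by -0.97 (adjusted p 0.00041) with the median of the 10-spot probes, and by 0.27 (adjusted p 0.096) with the percentile of probes that every array detected. Olfr1307 no longer passed with median scaling (0.30, adjusted p 0.278) or with the median of the 10-spot probes (0.41, adjusted p 0.176).

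The surroundings of the spots differed between slides as well. The median local background beside the Olfr166 spots ran from 16.0 to 19.5 intensity units on slide 1 and from 24.5 to 27.0 on slide 2, and beside the Olfr1307 spots from 15.0 to 18.0 and from 23.5 to 26.0. The ranges did not overlap for either gene. The SD between the Olfr166 spots of an array was 0.059 to 0.094 on slide 1 and 0.083 to 0.17 on slide 2. For Olfr1307 it was 0.053 to 0.12 and 0.067 to 0.12. The part of the local background in the slide differences was not tested.

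Both genes lay below the median difference of all tested probes, in either fit. Without a slide term 15.6% of tested probes had a lower difference than Olfr166 and 31.2% a lower one than Olfr1307. With the slide as a block those shares were 20.4% and 4.67%. Among the 35 named probes Olfr166 ranked 8 from the lowest and Olfr1307 ranked 13 without the block, and they ranked 7 and 3 with it. The named probes ran from -0.66 to 0.82 with the block, with 14 below and 21 above 0 and a median of 0.044. Both receptor genes were chosen with the group contrast known, so nothing is read from their shares and ranks.

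**Figure D4:**
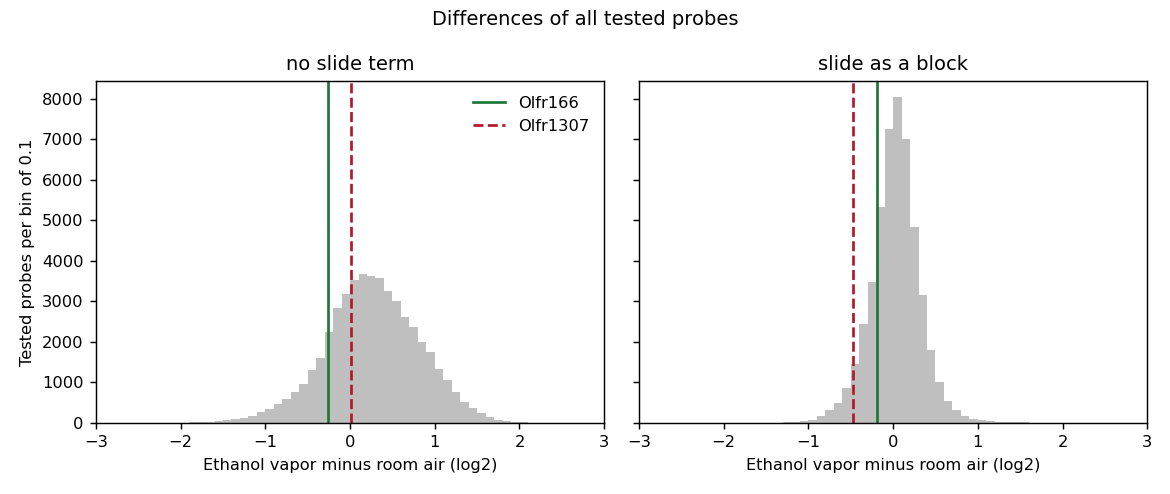
Number of tested probes by ethanol vapor minus room air difference (log2, bins of 0.1), without a slide term (left) and with the slide as a block (right); the few probes beyond the axis are not drawn. Lines mark Olfr166 at -0.26 and -0.19 and Olfr1307 at 0.0054 and -0.47, all below the median of the tested probes, 0.26 on the left and 0.032 on the right. Both genes were chosen with this contrast known.

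The named probes most like each receptor over the 10 arrays were found by Pearson's r among 34 others, given as a description, since all share the arrays and their scaling. For Olfr166 they included Gm9789 (r = 0.85) and H2-M2, a class I histocompatibility gene (0.73). For Olfr1307 they were Lhx1, a LIM homeobox transcription factor (0.92), Tm9sf1, a membrane protein of the TM9 family (0.90), and Mzb1, a chaperone of antibody-secreting cells (0.80). After the slide means were taken off, Olfr166 was most like Lhx1 (0.91), Tm9sf1 (0.91) and Spats1 (0.76), and Olfr1307 most like Gm9789 (0.80), Lhx1 (0.73) and Tm9sf1 (0.67). Lhx1 and Tm9sf1 were thus near both receptors within slides, with blocked differences of -0.66 and -0.59. The group difference stays in these levels, and the receptors were picked with it known, so nothing is read from that likeness. The receptors themselves had r = -0.37 with each other over all arrays and 0.55 within slides.

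**Figure D5:**
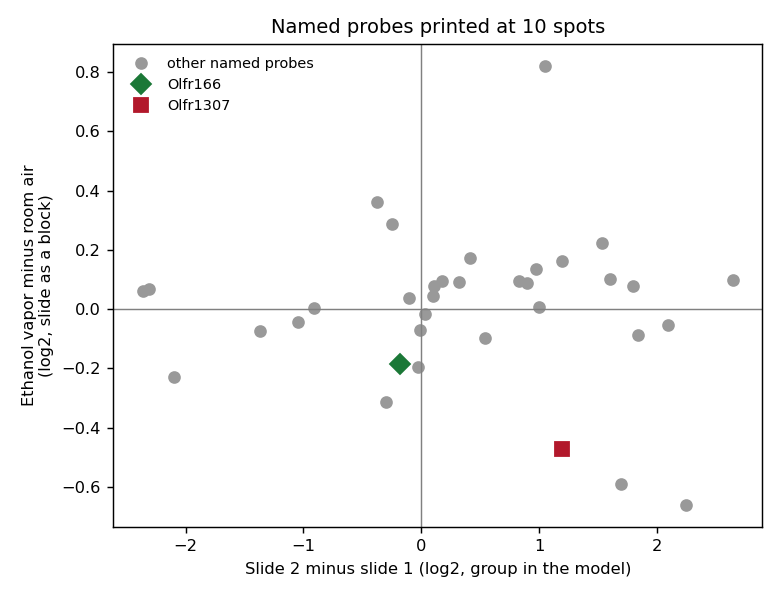
The 35 named and tested probes by their slide difference (slide 2 minus slide 1, log2, group in the model) and their group difference (ethanol vapor minus room air, log2, slide as a block). Olfr166 (green diamond) lies at -0.19 on both axes, and Olfr1307 (red square) at 1.20 and -0.47, near Tm9sf1 and Lhx1 at the lower right.

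Among these neighbours the group ranges met as they did for Olfr1307. Room air averaged 1.06 ± 0.10 (SD, n = 5) for H2-M2 and ethanol vapor 0.85 ± 0.11 (SD, n = 5), with ranges of 0.89 to 1.15 and 0.72 to 0.99. Gm9789 ran from 0.90 to 1.35 in room air and from 0.13 to 1.04 in ethanol vapor. Of the 35 named probes, Olfr166 was the 1 whose groups did not overlap on the 75th percentile scale, beside 0.492% of all tested probes. Since the gene was picked for this separation, nothing is read from that.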

How the data were processed

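The authors' deposited files give each spot's brightness as a linear intensity, and the scans were read by Feature Extraction (Agilent, version 11.0.1.1), as the file headers and the submitters' processing notes state. Per the file headers, this processed intensity had its background subtracted and was detrended, with no scaling of one array to another. The authors' deposited value table was not used, since it holds neither probe. Of 61537 non-control spots an array, those marked non-uniform were dropped. Each array's 75th percentile was subtracted from the log2 intensities before the spots of a probe were averaged. Of 60823 probes, 49363 read well above background on at least 5 arrays (in at least 0.5 of a probe's spots), and the 49028 of these with a value on all 10 arrays were fitted. No spot was saturated, and no pair of arrays held equal signals. A RefSeq gene table matched 46 of the 50 probes with 10 spots to a symbol by accession.

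Slide differences were tested in limma 3.58.1 (R 4.3.3) by lmFit and eBayes, two-sided, with the group in the model, Benjamini-Hochberg adjustment over all fitted probes and a threshold of 0.05. Group differences are estimates from limma, without and with the slide. The scripts were tested on simulated data. The number of arrays limits the precision. Probes like each receptor were named by a rule, the 3 highest r per gene with and without slide means, besides list members with a named probe; 1 probe so named is not reported here. The genes, lists and tests were chosen with earlier results of these data known. Alternatives covered scaling, background correction, spot marks, spot summary, slide and leaving out each array. Normexp on the median signals, the removal of outlier spots and the joint changes of scaling and slide were added after seeing the data.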

Additional observations from a re-analysis of the deposited data

Results flagged for a closer look

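Of 56 sets of 4 to 6 arrays checked for 1 array far from the others, 7 were marked. Chance marks about 1 set in 20, and these sets share the same arrays, so that is no chance level here. The figure given is the gap to the nearest array as a share of the whole range. For the rank of Olfr166 within the array, room air replicate 1 lay lowest at 81.7%, beside 82.9% to 83.0% on the other room air arrays (share 0.962). The spread between Olfr166 spots was widest in room air replicate 5, with an SD of 0.17 (share 0.715). For Olfr1307 the signal over local background was highest in ethanol replicate 7 within its group, at 13.5 (share 0.714), and in room air replicate 3 within slide 1, at 13.8 (share 0.906). The local background was lowest in ethanol replicate 4, the only ethanol array of slide 1, beside the Olfr166 spots (16.0, share 0.895 within the group) and beside the Olfr1307 spots (15.0, share 0.773 within the group and 0.833 within slide 1).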

How the results depend on the processing

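Group differences that moved by more than the spread between replicates were those of Olfr166 with median scaling (-0.69), quantile normalization (-0.052), the percentile of probes that every array detected (0.0040), the median of the 10-spot probes (-0.64) and no scaling (-0.48). That spread was taken within groups, ignoring the slide. It was wider for Olfr1307 (SD 0.70 in room air and 0.63 in ethanol vapor) than for Olfr166 (0.17 and 0.098). A move of Olfr1307 to -0.42 with median scaling was thus not marked. Where the slide block was added as well, both choices changed, and the comparison was still with the unblocked main values. Those were -0.26 for Olfr166 and 0.0054 for Olfr1307. Olfr166 was then marked at -0.11 after quantile normalization, -0.11 with the percentile of detected probes and -0.41 without scaling. Olfr1307 was marked at -0.69 without scaling. The block alone gave -0.19 for Olfr166 and -0.47 for Olfr1307, and moves away from these blocked values were not judged. Slide differences of Olfr166 passed the threshold with median scaling (-1.08) and the median of the 10-spot probes (-0.97), and changed sign without passing after quantile normalization (0.16) and with the percentile of detected probes (0.27). Those of Olfr1307 fell short with median scaling (0.30) and the median of the 10-spot probes (0.41). Relative to the median of all tested probes, the unblocked Olfr166 difference stayed at -0.52 under each scaling that shifts an array by 1 constant. After quantile normalization that relative difference was -0.071, and why it moved there was not tested. The 241 tested probes without overlap between groups became 412 with median scaling, 369 after quantile normalization, 41 without scaling and 396 without the filter on dim probes. Leaving out each array in turn gave 253 to 5337 such probes, with the highest count without ethanol replicate 4, -0.30 to -0.21 for Olfr166 (-0.21 to -0.13 blocked) and -0.22 to 0.25 for Olfr1307 (-0.56 to -0.39 blocked), whose sign changed in 6 of 10. Slide differences were -0.25 to -0.15 and 1.08 to 1.28. The probes past the slide threshold numbered 27386 to 43076 over the alternatives and 31618 to 36914 with an array left out. The authors' value table and normexp on mean signals were planned and not run, because the table holds neither probe and the files used here give median signals. No paired analysis was possible because the groups share no replicate number. The precision is limited by 5 arrays a group on 2 slides.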
